A study of Mus musculus with 4 samples.

Results

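Mouse chromosomes 14 and 19 carried 693 genes with a mean of 8 CPM (a gene's count scaled to a library total of 1000000 counts) or more over 4 libraries, out of 25413 genes in the count table. Of these, 321 lay on chromosome 14 and 372 on chromosome 19. The chromosomes were chosen by the comparison described here: the median of their genes was higher in cells given PM2.5 (fine airborne particles) than in untreated cells. The rise itself is therefore described and not tested, and the same holds for every fold change between the groups. The level of each gene over all 4 libraries made it a member, whatever its own direction of change. RNA came from EpH4, an established mouse mammary epithelial cell line, wildtype by its labels and grown in 2D culture. The groups were 2 untreated Control libraries and 2 PM2.5 libraries. The sources used here give neither dose nor exposure time. Whether replicates came from separate cultures is likewise not given, so spreads and calls rest on differences between 2 libraries that may be technical.

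A chromosome is a single DNA molecule, and its genes share the number of copies of that molecule in a cell as well as the chromatin domains they lie in. Copies can be gained or lost as cultured cells divide. Neighbouring genes can also share enhancers, while most responses to an exposure act gene by gene, through transcription factors whose targets are scattered over many chromosomes. The particles of PM2.5 carry polycyclic hydrocarbons and metals, and cells are known to answer them through the aryl hydrocarbon receptor, NF-kB and AP-1. DNA was not measured here.

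Library totals ranged from 18548478 to 26206329 counts, and a count of 3 in a library corresponded to 0.116 to 0.158 CPM. Levels below are scaled by the trimmed mean of M-values (TMM), whereas membership used CPM by plain library size. Of 10 epithelial marker genes, 6 (Epcam, Krt18, Krt5, Krt19, Esrp1 and Cldn4) had no count in any library, and 9 had a mean below 1 CPM. The exception was the basal keratin Krt14, at 53.03 and 51.01 CPM in Controls and 20.7 and 18.6 CPM in PM2.5. Apart from Krt14, these marker values do not bear out the epithelial name of the line, and the reason was not tested. The summed level of the epithelial list was 51.2 to 53.2 CPM in Controls and 19.8 to 21.4 CPM in PM2.5, that of 8 fibroblast genes 4524 to 4742 and 3658 to 3801 CPM, and that of 8 immune genes 9.04 to 10.1 and 15.75 to 17.7 CPM, with Itgam and Cd3e at 0. Within the fibroblast list, Vim, Col1a2 and Pdgfrb were lower in both PM2.5 libraries, whereas Dcn (44.04 and 83.6, then 221 and 280 CPM), Col3a1 and Col1a1 were higher. All 3 sums were apart between the groups, and their part in the values below was not tested. In bulk RNA, fewer cells of a type and less RNA per cell cannot be told apart.

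Promoters are shown for the genes that stood farthest from their chromosome's median, the 2 highest and the 2 lowest on each chromosome, where the RefSeq table on GRCm38.p6 held them: Ap1g2, Blnk, Pyroxd2 and Bbs1 matched, 4 of 8. Stc1, Scara5, Gpc6 and Nutf2-ps1 were the others. Each window runs from 250 bases before to 50 bases after the annotated start, on the strand of the gene, which is the minus strand for all 4. The coordinates of these windows are on GRCm38.p6, while all gene positions elsewhere are on GRCm39 as deposited. Capitals mark a match to the AP-1 motif. The windows are chr14:55106544-55106843 for Ap1g2, chr19:40994172-40994471 for Blnk, chr19:42752726-42753025 for Pyroxd2 and chr19:4906578-4906877 for Bbs1.
Ap1g2 (lower): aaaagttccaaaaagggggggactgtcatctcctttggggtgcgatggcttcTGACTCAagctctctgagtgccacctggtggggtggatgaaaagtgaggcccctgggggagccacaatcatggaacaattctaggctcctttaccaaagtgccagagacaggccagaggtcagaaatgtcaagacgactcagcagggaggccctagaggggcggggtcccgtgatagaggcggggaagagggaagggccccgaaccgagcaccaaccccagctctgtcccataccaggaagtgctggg
Blnk (higher): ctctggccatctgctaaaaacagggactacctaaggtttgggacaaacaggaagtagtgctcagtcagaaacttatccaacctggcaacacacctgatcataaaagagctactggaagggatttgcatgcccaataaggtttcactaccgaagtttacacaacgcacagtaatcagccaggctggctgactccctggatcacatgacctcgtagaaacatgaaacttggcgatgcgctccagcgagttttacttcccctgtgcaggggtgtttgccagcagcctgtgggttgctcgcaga
Pyroxd2 (higher): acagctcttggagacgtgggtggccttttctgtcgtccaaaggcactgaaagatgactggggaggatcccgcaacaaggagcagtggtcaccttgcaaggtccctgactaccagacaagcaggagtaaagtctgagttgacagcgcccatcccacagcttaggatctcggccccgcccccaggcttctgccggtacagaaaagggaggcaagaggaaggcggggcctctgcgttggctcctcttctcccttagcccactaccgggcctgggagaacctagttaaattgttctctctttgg
Bbs1 (lower): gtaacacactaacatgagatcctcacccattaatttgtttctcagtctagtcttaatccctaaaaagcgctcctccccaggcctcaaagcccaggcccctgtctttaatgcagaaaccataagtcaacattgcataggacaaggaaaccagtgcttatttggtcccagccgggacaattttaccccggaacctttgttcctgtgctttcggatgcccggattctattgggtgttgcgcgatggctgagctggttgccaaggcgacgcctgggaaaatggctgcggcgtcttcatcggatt
Both strands were searched for GCGTG (the core of the aryl hydrocarbon receptor element), GGGANTTCC and GGGANNTCC (NF-kB type, the second of which also takes every match of the first) and TGANTCA (AP-1). The only match in the 4 windows was the AP-1 motif of Ap1g2, a gene lower in PM2.5. Among all 27025 RefSeq windows of the same length, 32.5% held GCGTG, 1.70% GGGANTTCC, 4.25% GGGANNTCC and 7.93% TGANTCA. A match is a description of the letters, not of binding.

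The shared rise was small in size and similar on both chromosomes. The median log2 fold change, PM2.5 less Control, was 0.17 on chromosome 14 (quartiles 0.03 and 0.35), which is 1.13-fold, and 0.17 on chromosome 19 (quartiles 0.03 and 0.34), which is 1.12-fold. The 4 ways of pairing a PM2.5 library with a Control library gave medians of 0.17 to 0.18 on each chromosome. The 8971 genes of the same level elsewhere had a median of -0.04, so that the difference from them was 0.22 (1.16-fold) for chromosome 14 and 0.21 (1.16-fold) for chromosome 19. These were the ranks 1 and 2 among 20 nuclear chromosomes, and the other 18 medians ran from -0.28 (chromosome 16) to 0.10 (chromosome 13). Chromosomes 14 and 19 were thus the upper end of the spread of chromosome medians, whose place relative to 0 depends on the scaling between libraries.

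**Figure D1:**
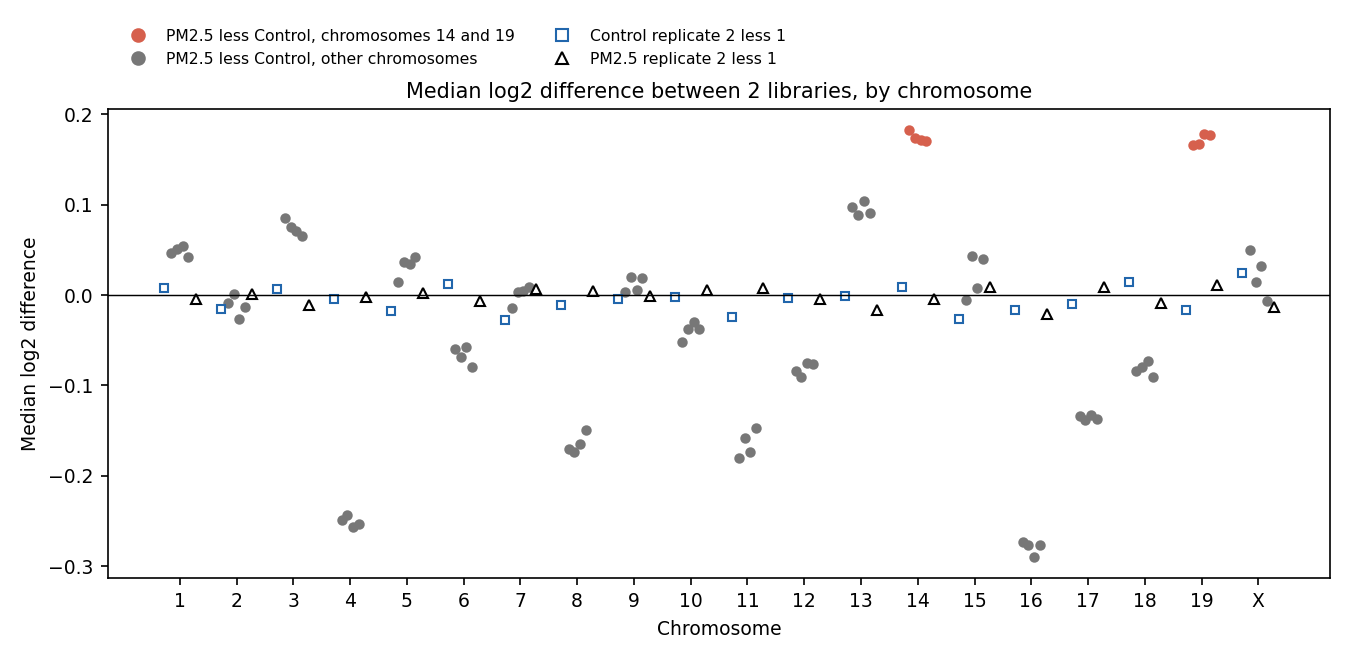
Median log2 difference by chromosome over genes with a mean of 8 CPM or more: filled points are the 4 pairings of a PM2.5 with a Control library, open squares Control replicate 2 less 1, open triangles PM2.5 replicate 2 less 1. The pairings of chromosomes 14 and 19 lie at 0.17 to 0.18, above those of every other chromosome, while the replicate differences of all chromosomes stay between -0.03 and 0.02.

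Most members shared the direction. On chromosome 14, 259 of 321 genes (80.7%) had a log2 fold change above 0, and on chromosome 19, 295 of 372 (79.3%). Both PM2.5 libraries lay above both Control libraries in 205 genes (63.9%) of chromosome 14 and 241 (64.8%) of chromosome 19, against 32.8% of all genes at this level. Both lay below in 30 (9.35%) and 38 (10.2%), against 40.4% of all genes. The groups overlapped in the remaining 86 and 93. By the edgeR quasi-likelihood test with Benjamini-Hochberg adjustment over 12478 genes (adjusted p below 0.05), 140 genes (43.6%) of chromosome 14 were called higher and 7 (2.18%) lower, and 165 (44.4%) and 15 (4.03%) on chromosome 19. Over all genes tested, which include genes below 8 CPM, 19.2% were called higher and 20.4% lower. Of the 9664 genes of 8 CPM or more, 1743 were called higher and 2361 lower. Since the chromosomes were selected on this contrast, these counts describe them and support nothing. The lower calls on chromosome 14 were 12 without Control replicate 2 and 3 without PM2.5 replicate 2, and those on chromosome 19 were 24 without Control replicate 2. With no filter 13 were lower on chromosome 14, and with library size only 8 on chromosome 19. DESeq2 called 87 genes of chromosome 14 higher.

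The rise was also visible in the share of all counts. All genes of chromosome 14, members or not, took 2.28% and 2.33% of the Control counts and 2.69% and 2.69% of the PM2.5 counts. Without Tpt1, its most counted gene, the shares were 2.13% and 2.16%, then 2.501% and 2.502%. All genes of chromosome 19, members or not, took 4.51% and 4.57% of the Control counts and 5.41% and 5.49% of the PM2.5 counts. Without Fth1, the ferritin heavy chain, they took 4.09% and 4.12%, then 4.65% and 4.67%. The groups did not overlap in any of these 4 comparisons, of which those without Tpt1 or Fth1 are parts of the others. Since the chromosomes were chosen for a rise in these same libraries, the shares describe that rise and support nothing. Shares of other chromosomes are not given beside them.

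Differences inside a group did not enter the choice of the chromosomes. The median log2 ratio of Control replicate 2 to Control replicate 1 was 0.01 on chromosome 14 and -0.02 on chromosome 19, within the -0.03 to 0.02 of the other 18 nuclear chromosomes. For the PM2.5 libraries it was -0.005 on chromosome 14, inside the -0.02 to 0.009 of the others, and 0.01 on chromosome 19, just above them. No replicate median exceeded 0.02 in size on either chromosome, against 0.17 between the groups. Single genes moved more than 1.5-fold between replicates in 6 cases among the Controls, Ero1a, Bnip3l and Egr3 on chromosome 14 and Gm50388, Il33 and Rpl9-ps6 on chromosome 19, and in 1 case, Gm50388, among the PM2.5 libraries. Il33, an alarmin cytokine named here after its values were seen, was at 46.0 and 103 CPM in the Controls and 47.4 and 59.4 CPM in PM2.5, so that the groups overlapped.

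**Figure D2:**
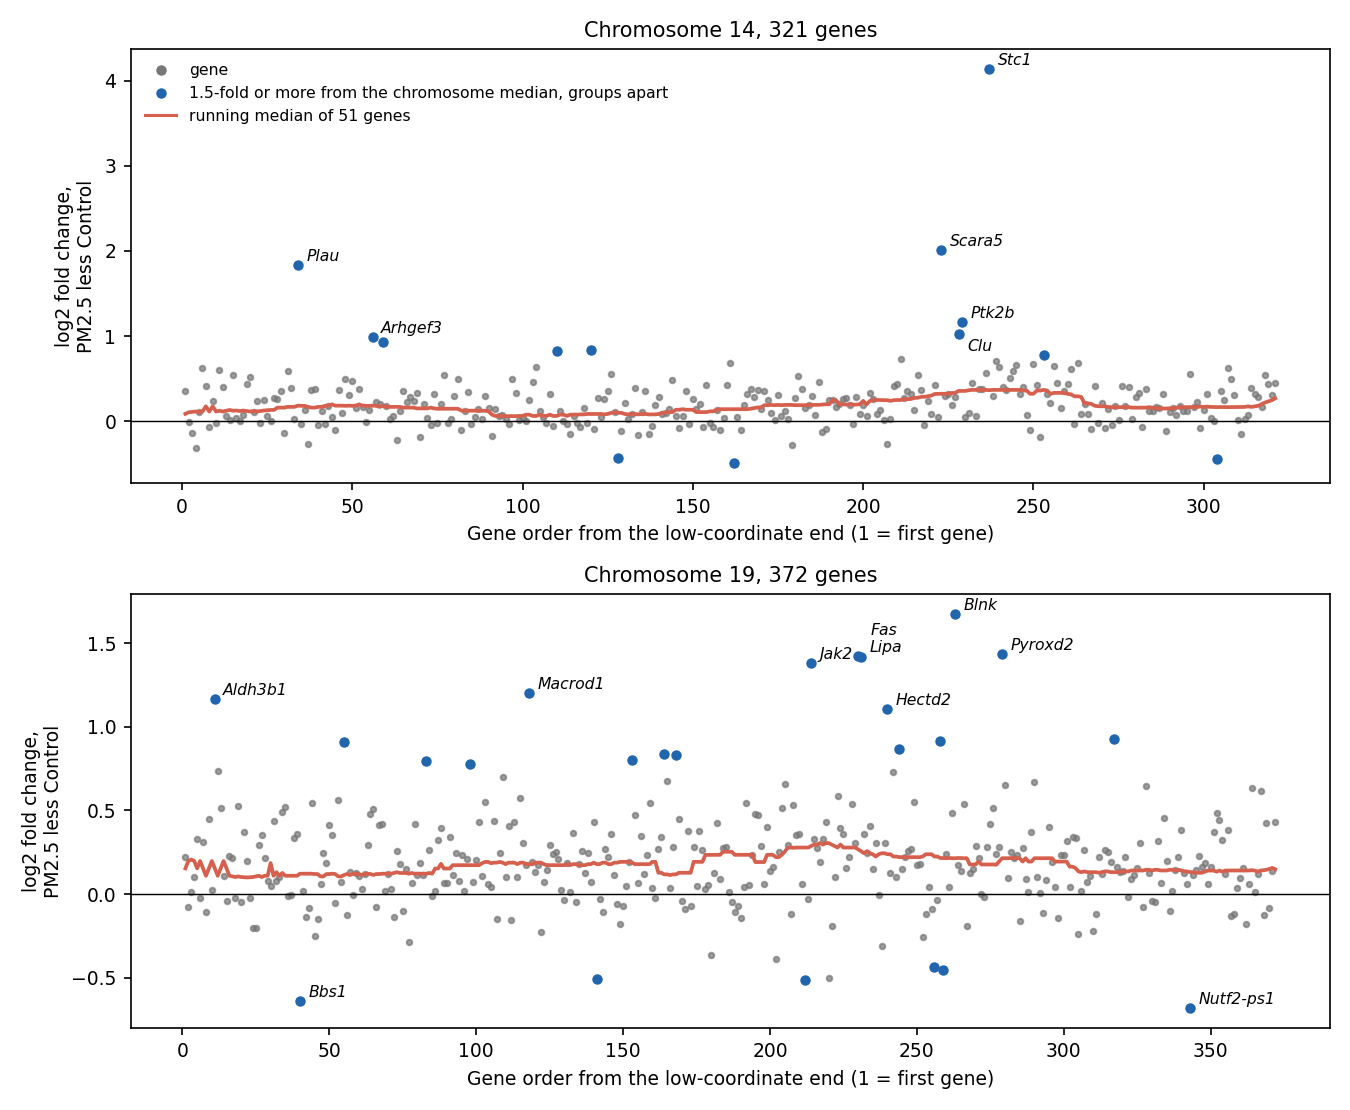
Log2 fold change of each member in order along chromosome 14 (321 genes, upper panel) and chromosome 19 (372 genes, lower panel), with the running median of 51 genes as a line and genes 1.5-fold or more from the chromosome median, with the groups apart, in blue. The line stays above 0 from end to end, between 0.06 and 0.37 on chromosome 14 and, where a full 51 genes are averaged, between 0.10 and 0.30 on chromosome 19.

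Along both chromosomes every window median was above 0, with a high stretch in each. On chromosome 14 the running median of 51 genes was lowest, at 0.06, from Glt8d1 to Peli2 (30723357 to 48519032) and highest, at 0.37, from Spryd7 to Fhip2b (61769442 to 70837275), where 47 of 51 genes were above 0. In 10 Mb windows the 42 genes at 60 to 70 Mb had a median of 0.32 (40 above 0) and the 42 genes at 70 to 80 Mb one of 0.25. The 28 genes at 40 to 50 Mb had a median of 0.05 and the 77 genes at 50 to 60 Mb one of 0.15. On chromosome 19 the running median was lowest, at 0.10, from Mrpl21 to Klc2 (3332901 to 5168588), close to the low-coordinate end, and highest, at 0.30, from Zfand5 to Fgfbp3 (21249642 to 36897015). The windows at 20 to 30 Mb (30 genes) and 30 to 40 Mb (36 genes) had medians of 0.28 and 0.23, and the other windows with 20 genes or more lay between 0.13 (10 to 20 Mb) and 0.16 (40 to 50 Mb). With 20 Mb windows the high stretches stayed, at 0.31 for 60 to 80 Mb of chromosome 14 and 0.25 for 20 to 40 Mb of chromosome 19. Windows with fewer than 20 genes, which on chromosome 14 are all those below 20 Mb and above 80 Mb, had medians of 0.05 to 0.31 and are not ranked. In the first 10 Mb of chromosome 14 only 5 of 10 genes were above 0, and the median of 0.05 was smaller in size than that between the PM2.5 replicates there, -0.08.

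**Figure D3:**
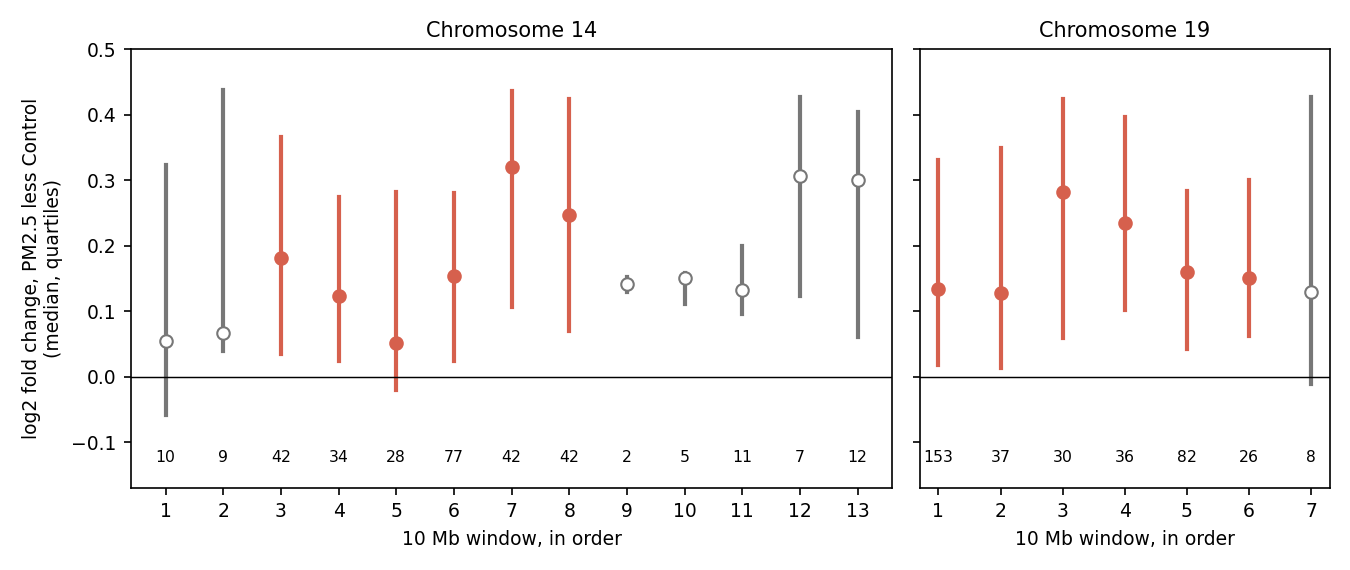
Median log2 fold change in 10 Mb windows along chromosome 14 (left) and chromosome 19 (right), numbered from the low-coordinate end, with the interquartile range as bars, the number of genes under each and windows of fewer than 20 genes drawn open. Every window median is above 0, and the highest of those with 20 genes or more are 0.32 on chromosome 14 and 0.28 on chromosome 19.

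Reads that the raw count leaves out showed a difference of the same direction. The deposited total gene reads were at least as many as the raw count for every gene, with no definition of what the surplus holds. The surplus made up 9.82% and 10.5% of the total in Controls and 11.7% and 11.6% in PM2.5. Set against all genes, its median log2 difference was 0.17 on chromosome 14 (303 genes, library pairings 0.16 to 0.19) and 0.17 on chromosome 19 (346 genes, 0.16 to 0.20), the ranks 2 and 1 of 20. Set against all genes of 8 CPM or more, the raw counts gave larger medians, 0.2015 on chromosome 14 and 0.1952 on chromosome 19. The surplus comes from the same libraries and the same contrast, and is a further description.

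The size of the rise differed with the level of a gene, as it did elsewhere. In 3 classes of mean level, bounded at 31.8 and 77.8 CPM, the medians were 0.26, 0.15 and 0.12 from low to high on chromosome 14 and 0.28, 0.16 and 0.11 on chromosome 19. Genes of the other chromosomes went from 0.02 over -0.04 to -0.09. In each class both chromosomes lay above the others. Plus-strand and minus-strand genes had medians of 0.16 and 0.19 on chromosome 14 and 0.16 and 0.17 on chromosome 19. Median GC content was 47.3% on chromosome 14, 51.4% on chromosome 19 and 49.4% elsewhere, on either side of the other genes. The genes richest in GC had medians of 0.24 and 0.18 on chromosomes 14 and 19, and the poorest 0.16 and 0.19. An adjustment chosen after the data were seen subtracted the median of genes elsewhere of like GC content, exonic length and level. The medians were then 0.20 and 0.23, against differences of 0.22 and 0.21 from all genes elsewhere. Their ranks were 2 and 1 of 20, so that the 2 chromosomes changed places at the top.

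Around their chromosome's median the members were spread about as widely as genes elsewhere. Within 0.25 of it on the log2 scale lay 238 genes (74.1%) of chromosome 14 and 260 (69.9%) of chromosome 19. On the other nuclear chromosomes, 69.7% of the genes lay as close to the median of their own chromosome. Departing genes were defined as 1.5-fold or more from the median of their chromosome with both PM2.5 libraries on the same side of both Controls after centring on it. Chromosome 14 had 10 above (3.12%) and 3 below (0.935%), and chromosome 19 had 17 above (4.57%) and 6 below (1.61%). Over all genes at this level, each set against its own chromosome, the shares were 4.68% above and 1.46% below, so the number of departing genes is no feature of these chromosomes. Leaving out Control replicate 2 gave 17 above on chromosome 14, and leaving out Control replicate 1 gave 1 below.

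**Figure D4:**
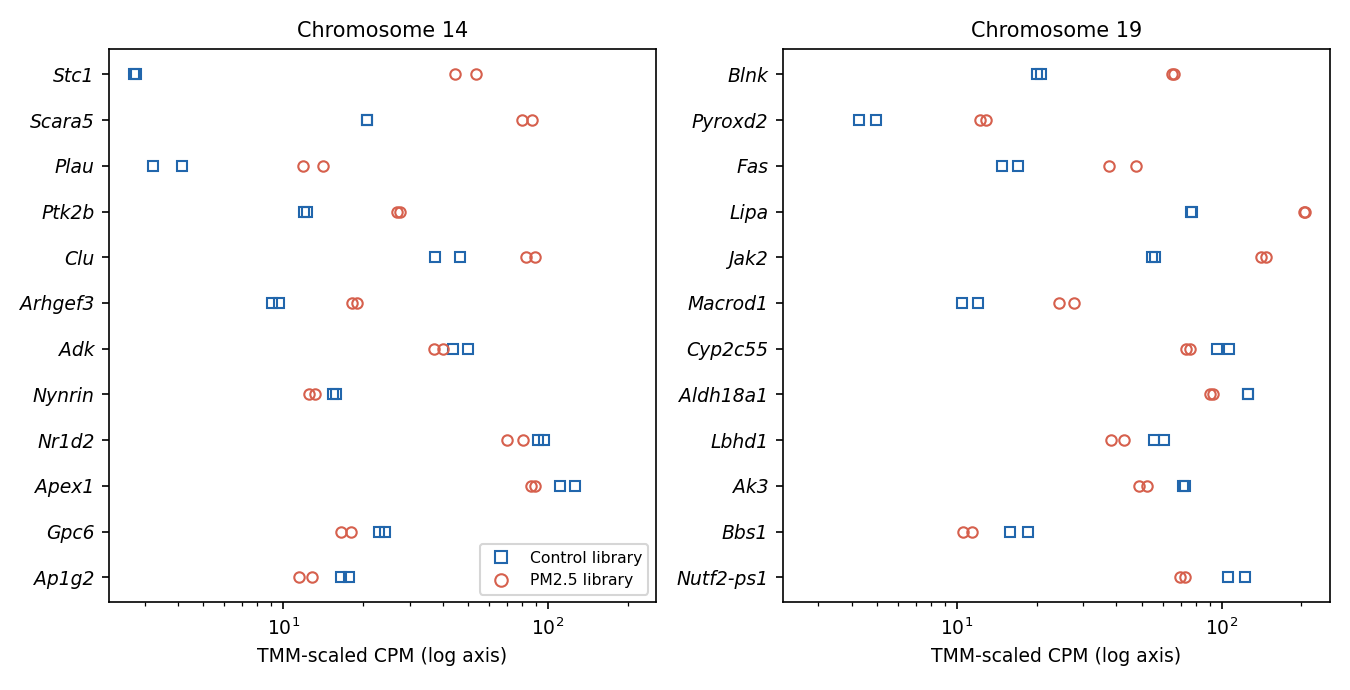
TMM-scaled level in CPM (log axis) in each of the 4 libraries, squares for Control and circles for PM2.5, of the 6 genes highest above and the 6 lowest below the median on chromosomes 14 (left) and 19 (right). Stc1 has the widest gap, from 2.73 and 2.79 CPM in the Controls to 44.4 and 53.3 CPM in PM2.5, and for the genes below the median the circles lie to the left of the squares.

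The widest departure was that of Stc1 on chromosome 14 (69266687 to 69279253, plus strand), which encodes stanniocalcin 1, a secreted glycoprotein linked to calcium and phosphate balance. Its level was 2.73 and 2.79 CPM in the Controls and 44.4 and 53.3 CPM in PM2.5, a log2 fold change of 4.14 ± 0.13 (SE), or 17.6-fold. On the deposited RPKM scale, which divides by gene length, its mean went from 0.548 to 9.83. Other secreted products and proteases among the 10 genes of chromosome 14 departing above were Clu, Plau, Wnt5a and Bmp1. Clusterin, the extracellular chaperone encoded by Clu, was at 37.5 and 46.7 CPM in the Controls and 82.5 and 89.6 CPM in PM2.5 (log2 fold change 1.03 ± 0.10). Plau, the urokinase plasminogen activator, went from 4.15 and 3.22 CPM to 14.1 and 11.9 CPM (1.83 ± 0.17). The groups were well apart for each of them, although Plau owed its membership to its PM2.5 level. Wnt5a, a Wnt ligand that acts mostly without beta-catenin, was at 19.8 and 22.8 CPM in the Controls and 41.2 and 40.5 CPM in PM2.5 (0.94 ± 0.09). Bmp1, the procollagen C-proteinase, named after its values were seen, was at 64.9 and 64.5, then 111 and 111 CPM (0.78 ± 0.06).

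Receptors, kinases and enzymes made up the rest of the upper departures on chromosome 14. Scara5, a scavenger receptor that binds ferritin, was at 20.7 and 20.7 CPM in the Controls and 79.8 and 86.9 CPM in PM2.5, 4.02-fold (log2 fold change 2.01 ± 0.07). Ptk2b, the calcium-responsive tyrosine kinase Pyk2, was at 12.4 and 12.0, then 26.8 and 27.7 CPM (1.16 ± 0.09). Arhgef3, a guanine nucleotide exchange factor, was at 9.09 and 9.65, then 18.9 and 18.2 CPM (0.98 ± 0.11). In all of these the replicates of a group lay far closer to each other than to the other group. Gch1, the first enzyme of tetrahydrobiopterin synthesis, was at 6.99 and 9.15, then 13.5 and 15.4 CPM (0.83 ± 0.15). Tmem260, a membrane protein gene named after its values were seen, was at 16.5 and 18.3, then 30.5 and 31.7 CPM (0.83 ± 0.09).

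The 3 genes of chromosome 14 departing below by 1.5-fold or more were Ap1g2, Gpc6 and Apex1. Ap1g2, a large subunit of a clathrin adaptor complex, was at 17.8 and 16.6 CPM in the Controls and 11.5 and 12.9 CPM in PM2.5 (-0.49 ± 0.11). It overlaps Thtpa on the opposite strand, which was higher, at 20.8 and 22.0, then 34.9 and 33.9 CPM (0.68 ± 0.08). The sources used here do not say whether counting used strand, so reads of the 2 genes may be mixed. Gpc6, a glypican that anchors heparan sulfate to the cell surface, was at 24.3 and 23.0, then 18.02 and 16.6 CPM (-0.45 ± 0.09). Apex1, the endonuclease of base excision repair, was at 127 and 111, then 89.3 and 86.2 CPM (-0.44 ± 0.07), and it overlaps Pip4p1, which was at 47.5 and 51.8, then 46.0 and 46.1 CPM. Smaller departures below, by the same naming rule, were those of the circadian repressor gene Nr1d2 (log2 fold change -0.32 ± 0.08), of Nynrin (-0.28 ± 0.11, not past the test) and of the adenosine kinase gene Adk (-0.27 ± 0.08).

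On chromosome 19 the widest departure was that of Blnk (40917371 to 40982978, minus strand), an adaptor known from B-cell receptor signalling. It was at 20.1 and 20.7 CPM in the Controls and 64.7 and 66.1 CPM in PM2.5, 3.20-fold (log2 fold change 1.68 ± 0.07). Pyroxd2, which encodes a pyridine nucleotide-disulfide oxidoreductase-like protein, was at 4.26 and 4.96, then 12.3 and 12.9 CPM (1.44 ± 0.14), and was below 8 CPM in the Controls. Fas, the death receptor, was at 17.0 and 14.8, then 47.6 and 37.5 CPM (1.43 ± 0.12). Each of the 3 was more than 2 times as high in the lower PM2.5 library as in the higher Control library. Jak2, the kinase of cytokine receptors, was at 56.1 and 54.6, then 147 and 141 CPM (1.38 ± 0.06). Lipa, the lysosomal acid lipase, was at 76.9 and 76.6, then 205 and 206 CPM (1.42 ± 0.06). Macrod1, an ADP-ribose hydrolase, was at 10.5 and 12.0, then 24.4 and 27.6 CPM (1.20 ± 0.11). The 11 other genes departing above had log2 fold changes of 0.78 (Ppp2r5b) to 1.17 (Aldh3b1).

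The most counted gene of both chromosomes was among those 11. Fth1, the iron-storing heavy chain of ferritin, was at 4274 and 4619 CPM in the Controls and 7503 and 8009 CPM in PM2.5, 1.74-fold (0.80 ± 0.07), and its mean RPKM went from 2287 to 4052. Cst6, an inhibitor of cysteine proteases, was at 9.41 and 8.92, then 17.4 and 17.0 CPM (0.91 ± 0.11). The mitochondrial carrier gene Slc25a45 was at 8.93 and 8.99, then 16.04 and 15.1 CPM (0.79 ± 0.12), again with the groups apart. Of the remainder, 7 were named after their values were seen: the aldehyde dehydrogenase gene Aldh3b1, the ubiquitin ligase gene Hectd2 (1.11), Mfsd13a (0.93), the RNA-binding protein gene Cpeb3 (0.87), Cyb561a3 (0.84), Tmem132a (0.83) and Ppp2r5b, a regulatory subunit of protein phosphatase 2A.

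On chromosome 19, 6 genes departed below the median by 1.5-fold or more. The lowest, Nutf2-ps1 (53576599 to 53577499, minus strand), is a pseudogene by its name, and its counts may be reads of its parent gene: 105 and 123 CPM in the Controls and 72.5 and 69.8 CPM in PM2.5 (-0.68 ± 0.08). Bbs1, a subunit of the BBSome that carries cargo to cilia, was at 18.5 and 15.9, then 10.6 and 11.4 CPM (-0.64 ± 0.12). Ak3, the adenylate kinase of the mitochondrial matrix, was at 71.6 and 72.7, then 48.8 and 52.4 CPM (-0.51 ± 0.07). Ak3 overlaps Cdc37l1 on the other strand, which was at 91.5 and 101, then 99.6 and 102 CPM (0.06 ± 0.07). Lbhd1 was at 60.3 and 55.5, then 42.8 and 38.3 CPM (-0.51 ± 0.08), but it shares its strand with the overlapping 1810009A15Rik (-0.03 ± 0.08). Reads of that pair cannot be assigned with certainty. Aldh18a1, which makes the precursor of proline, was at 125 and 126, then 93.0 and 90.3 CPM (-0.45 ± 0.06). Cyp2c55, a cytochrome P450, was at 95.8 and 107, then 76.0 and 73.6 CPM (-0.44 ± 0.07).

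Some departing genes lay near another one, of like direction on both chromosomes and, on chromosome 19, also of opposite direction. Of the 9 genes departing below, 3 (Bbs1, Ak3 and Aldh18a1) were in such a pair. Fas and Lipa start 201.7 kb apart with no member between them, at 1.43 and 1.42. Ak3, at -0.51, and Jak2, at 1.38, start 231.0 kb apart, with Rcl1 (-0.03 ± 0.08) between them. Aldh18a1, at -0.45, and Blnk, at 1.68, start 378.7 kb apart. On chromosome 14, Scara5, Clu and Ptk2b start 302.1 and 184.8 kb apart, and the 4 members between Scara5 and Clu (Pbk, Esco2, Ccdc25 and Scara3) had log2 fold changes of 0.19 to 0.32. That trio and Stc1 lie inside the stretch with the highest running median. Set against the running median of their 51 neighbours in place of the whole chromosome, Stc1 stood 3.77 above, Scara5 1.69, Ptk2b 0.81 and Clu 0.67.

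None of the most counted members besides Fth1 stood 1.5-fold from its chromosome's median. Tpt1, which encodes a growth-related cytoplasmic protein and is the most counted gene of chromosome 14, was at 1604 and 1692 CPM in the Controls and 1816 and 1838 CPM in PM2.5 (0.15 ± 0.06, not past the test), near the median of its chromosome. Rpl15 and Rps24, ribosomal protein genes of chromosome 14, had log2 fold changes of -0.13 ± 0.06 and -0.11 ± 0.06, neither past the test. Eef1g, a subunit of elongation factor 1, was at 1790 and 1713, then 1564 and 1533 CPM (-0.18 ± 0.06), and was called lower. Scd2, a stearoyl-CoA desaturase, was at 1729 and 2085, then 1934 and 2153 CPM (0.10 ± 0.09), with overlapping groups.

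**Figure D5:**
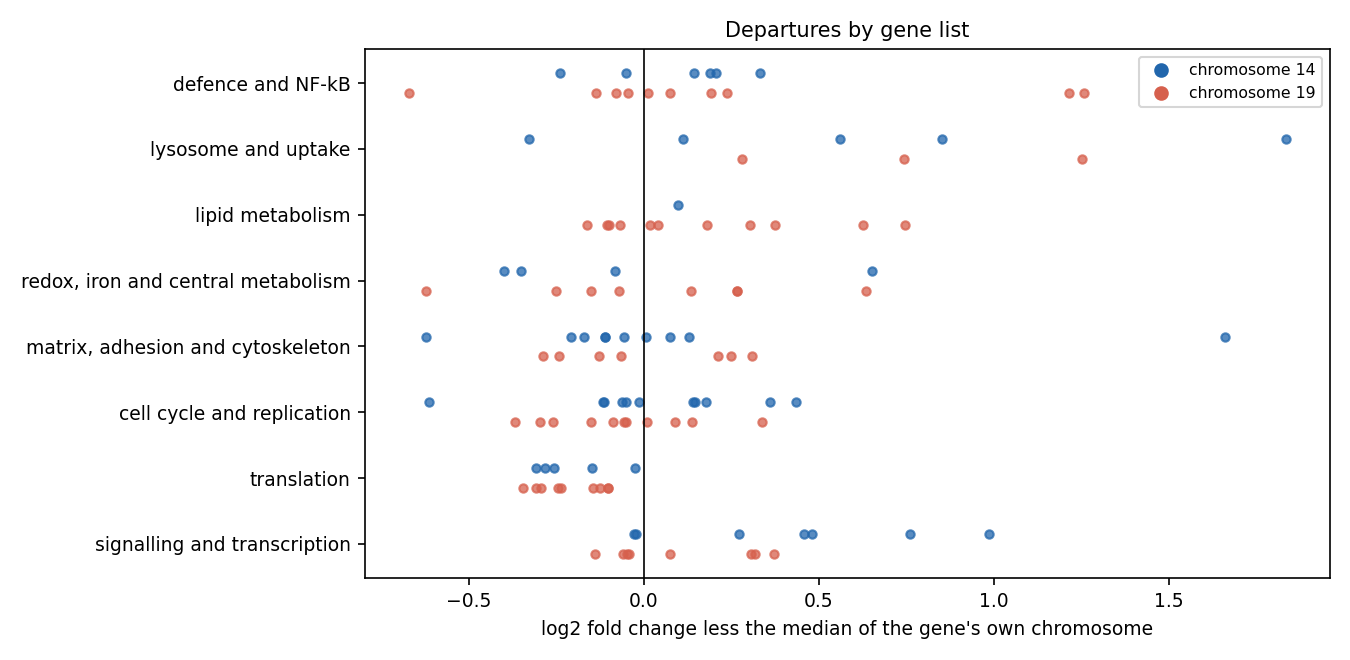
Log2 fold change less the median of the gene's own chromosome, 1 point per member, for 8 gene lists on chromosome 14 (blue) and chromosome 19 (red). All 14 points of the translation list lie below 0, and 7 of 8 points of the lysosome and uptake list lie above it.

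Gene lists, chosen with earlier results of these data known, sat at different heights on the shared rise. Their counts of higher calls stand beside the 43.6% of all members of chromosome 14 and the 44.4% of chromosome 19 called higher, and nothing is read from them. Over both chromosomes the lysosome and uptake list had 8 members, of which 6 were called higher and none lower, with a median of 0.82. It holds Scara5, Clu, Lipa and Cst6, described above, together with Ctsb, the cathepsin B gene, at 327 and 357 CPM in the Controls and 571 and 568 CPM in PM2.5 (0.73 ± 0.06), and Tcirg1, a subunit of the lysosomal proton pump, at 85.7 and 86.6, then 120 and 115 CPM (0.45 ± 0.06). Ctsb overlaps Fdft1 on the opposite strand. The 2 members not called were Lgals3 (-0.15 ± 0.06), a galectin, and Scara3 (0.29 ± 0.12). Of 15 signalling and transcription genes 8 were called higher and none lower (median 0.45). The 7 on chromosome 14 had a median of 0.63 and the 8 on chromosome 19 one of 0.19, near that of all its members. Among those called were Wnt5a, Ptk2b and the Wnt effector gene Tcf7l2, at 28.4 and 30.9, then 41.2 and 42.2 CPM (0.49 ± 0.07). Of 16 genes of defence and NF-kB 8 were called higher and none lower (median 0.28), close to the share of all members. Besides Fas and Jak2 these included the death receptor gene Tnfrsf10b, at 50.9 and 52.2, then 74.2 and 72.2 CPM (0.51 ± 0.06), while the NF-kB subunit gene Rela was at 92.2 and 90.9, then 90.7 and 96.4 CPM (0.03 ± 0.06).

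The other lists lay nearer to the chromosome medians or below them. Of 12 lipid metabolism genes 7 were called higher and none lower (median 0.24), with the squalene synthase gene Fdft1 at 0.27 ± 0.08. Of 22 cell cycle and replication genes 8 were called higher and 1, Apex1, lower (median 0.12). The retinoblastoma gene Rb1 was at 55.2 and 67.2 CPM in the Controls and 89.5 and 97.9 CPM in PM2.5 (0.61 ± 0.09), overlapping Lpar6 and Rcbtb2, while the checkpoint clamp gene Rad9a, with -0.20 ± 0.07, was not past the test. Of 17 matrix, adhesion and cytoskeleton genes 6 were called higher and 1, Gpc6, lower (median 0.10). Among the higher ones was the fibulin gene Efemp2 (0.48 ± 0.06), which overlaps Mus81 (0.51 ± 0.08). Of 12 redox, iron and central metabolism genes 5 were called higher and 3 lower (median 0.09). The lower ones were Aldh18a1, the transketolase gene Tkt, at 212 and 220, then 185 and 185 CPM (-0.23 ± 0.05), and the glutamate dehydrogenase gene Glud1 (-0.18 ± 0.06). None of the 14 members of the translation list was above the median of its own chromosome. That list is wider than its name and includes Ipo5 and Slc3a2. None of the 14 was called higher by edgeR and 1, Eef1g, lower (median -0.07). The mitochondrial ribosomal protein gene Mrpl11 was at 48.0 and 48.7, then 43.7 and 44.1 CPM. The medians of all members, 0.17 on each chromosome, stand beside these. The nuclear noncoding RNAs of a ninth list were not analysed here.

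The level of 8 CPM cuts through a continuous range. Just inside it lay 4931414P19Rik (8.17 CPM by library size) and Plau (8.43) on chromosome 14 and Trpm6 (8.04) and Tmem151a (8.21) on chromosome 19. Just outside lay Homez (7.38), Msra (7.16), Morn4 (7.66) and Zbtb3 (7.48). On each chromosome 7 members had a Control mean below 8 CPM and none had a PM2.5 mean below it, so these 14 entered through their PM2.5 level. They include Stc1, Plau and Gch1 on chromosome 14 and Pyroxd2 and Mfsd13a on chromosome 19. With membership set by the Controls alone, the medians were 0.16 on both chromosomes. Of 1081 rows on chromosome 14, 428 had no count in any library and 98 were tested but below the level, and of 743 rows on chromosome 19 the numbers were 141 and 91.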

How the data were processed

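Polyadenylated RNA of 4 EpH4 libraries was sequenced, with 750 ng of total RNA as input to a stranded kit, per the labels' protocols. The authors deposited raw counts per gene and RPKM values, per the file headers, together with a count named total gene reads. Gene positions are on GRCm 39 (GRCm39), per the submitters' processing notes. The sources used here name no aligner, counting program, annotation release or use of strand. All 693 genes passed the filter. Raw counts were fitted with edgeR 4.0.16 in R 4.3.3 (filterByExpr, TMM, quasi-likelihood test, no replicate block, Benjamini-Hochberg threshold of 0.05 over 12478 genes), after a check on simulated data. Standard errors derive from the test statistic. DESeq2 1.42.0, limma 3.58.1 on log2 of RPKM plus 0.1 or 1, other scalings, levels and departure sizes, and leaving out each library were alternatives. Single-library log2 values used 0.5 added counts. Replicates of a group differed by more than counting noise.

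The members and lists were chosen with earlier results of these data known. Named genes were, per chromosome, the 6 highest and 6 lowest departures among genes with a gene symbol and groups apart, the 3 most counted, the 2 members of each list farthest from the median and the 2 on either side of the level of 8 CPM. Others are marked where they appear or belong to a list or count described. Some genes that the rule took are counted but not named here.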

Additional observations from a re-analysis of the deposited data

How the results depend on the processing

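Over all settings tried the medians stayed above 0, between 0.15 and 0.24 on chromosome 14 and between 0.15 and 0.23 on chromosome 19, and the cause of each shift was not tested. For chromosomes 14 and 19 in this order, the median was 0.2363 and 0.2303 with library size only. It was 0.2174 and 0.2111 with upper quartile scaling, and 0.1906 and 0.1843 with TMM factors from the other chromosomes. With no filter it was 0.1532 and 0.147, and with DESeq2 0.1641 and 0.157. A level of 4 CPM gave 0.1798 and 0.1786, one of 16 CPM 0.1602 and 0.1551, and 8 CPM in Controls 0.1643 and 0.1613. On log2(RPKM + 0.1) it was 0.1967 and 0.1893. Set against genes of like GC content, length and level, it was 0.2003 and 0.2271. Those 2 values are differences from other genes, and compare with 0.2184 and 0.212 against all genes elsewhere. The reads outside the raw count gave 0.1766 on chromosome 19. The 10 Mb window that was highest in the main fit had a median of 0.3826 with library size only on chromosome 14. With upper quartile scaling it was 0.3635 there, and on chromosome 19 that window was at 0.3446 with library size only. DESeq2 called 87 genes of chromosome 14 higher in place of 140. Lower calls were 13 with no filter on chromosome 14, and 8, 9 and 8 with library size only, upper quartile scaling and log2(RPKM + 1) on chromosome 19. With a smaller departure than 1.5-fold, 38 genes were above and 14 below on chromosome 14 and 44 and 20 on chromosome 19; at 2-fold, 3 and 0, and 7 and 0. On log2(RPKM + 1), 5 above and 0 below remained on chromosome 14 and 10 above on chromosome 19. A level of 4 CPM gave 6 below on chromosome 14, and one of 16 CPM, with fewer genes, 11 above on chromosome 19. Among 50 named genes and 17 settings, 750 of 830 departures moved by less than their standard error. The other 80 moved further or, for genes not departing by 1.5-fold, changed sign. Among the named departing genes 0 changed sign. Other scalings shift all genes nearly alike and other levels reuse the same fit, so these settings could hardly move a departure. The count therefore says little about them.

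Leaving out each library in turn gave medians of 0.1531 to 0.1762 on chromosome 14 and 0.1637 to 0.1736 on chromosome 19, 3 to 12 and 12 to 24 lower calls, 97 to 130 and 111 to 155 higher calls, 9 to 17 and 14 to 24 genes above, and 1 to 4 and 7 to 8 below. Where a group is left with 1 library, that library is assumed to vary like the other group. The replicate numbers of the titles give 2 pairs that share only a number; the deviations of same-numbered libraries from their group means correlated at 0.278 over 9664 genes. With the replicate block, 154 genes were called higher and 13 lower on chromosome 14 and 189 and 23 on chromosome 19, with 10 and 17 genes above and 3 and 6 below. The window at 20 to 30 Mb of chromosome 19, highest in the main fit, ranged from 0.2239 to 0.2787 in the 4 fits without a library. Whether it stayed the highest there was not checked. The floor of 3 counts speaks for counting error alone, as no molecular identifiers mark single molecules.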
